A study of Drosophila melanogaster with 73 samples.

Results

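Glutathione transferases were taken as every gene of the gut and fat body count tables whose FlyBase symbol is Gst followed by a class letter D, E, S, T, O or Z and a digit, which gave 35 genes. The gut table of 10366 genes held 33 of them and the fat body table of 11069 genes held 30. By class they were 11 delta (D), 14 epsilon (E), 1 sigma (S), 4 theta (T), 3 omega (O) and 2 zeta (Z) genes. The study asked how the transcription factors Foxo, AopACT and PntP1 act alone and together on gene expression in the gut and fat body of adult female Drosophila melanogaster. Foxo is the forkhead factor downstream of insulin signalling, AopACT encodes the ETS repressor Anterior open in an always-active form, and PntP1 is an isoform of the ETS activator Pointed. S106, a GeneSwitch driver that RU486 feeding turns on in gut and fat body, was present in every fly with UAS transgenes in 7 genotypes: Foxo, AopACT, PntP1, Foxo+AopACT, Foxo+PntP1, AopACT+PntP1 and Foxo+AopACT+PntP1. Mated females (48 h with males) were fed 200 uM RU486 (induced) or no RU486 (uninduced) for 6 days, and each library came from a pool of dissected organs. No genotype with the driver and no transgene is among the labels used here, so in every comparison of induced with uninduced flies RU486 itself and the transgenes cannot be told apart.

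Glutathione transferases join the thiol of glutathione to electrophilic molecules, which makes plant toxins, insecticides and lipid peroxidation products more soluble and ready for export. Delta and epsilon enzymes are the classes that expanded in insects and that are best known for insecticide resistance, whereas sigma, theta, omega and zeta classes are shared with vertebrates. In flies many of these genes are known targets of CncC, the Nrf2 homologue that Keap1 holds back, and transgenes built on the GstD1 promoter are a usual reporter of oxidative stress. The gut meets ingested compounds first, and the fat body shares metabolic roles with the mammalian liver.

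The 70 libraries analysed were 36 gut libraries (17 induced and 19 uninduced) with 1598120 to 6145550 counts and 34 fat body libraries (18 induced and 16 uninduced) with 1138812 to 8257766 counts. Of 73 labelled libraries, 3 induced fat body ones (AopACT, Foxo+PntP1 and PntP1) had no matching column and were not analysed here. Groups held 1 to 3 libraries, and the gut Foxo+PntP1 uninduced group was the smallest with 1. In guts that carried the UAS-Pnt transgene, pnt was at 155 to 1050 CPM (counts scaled by library size) in induced libraries and at 24.0 to 50.7 CPM in uninduced ones. In the fat body foxo was no higher after induction, with 44.5, 61.6 and 149 CPM (lowest, median and highest of 11 libraries) in induced carriers against 48.9, 95.9 and 123 CPM (10 libraries) in uninduced carriers. The fat body aop values were 60.1, 86.7 and 120 CPM in 11 induced carriers and 44.1, 60.3 and 67.4 CPM in 8 uninduced carriers. The libraries numbered 02 and 05 carried different labels in gut and fat body, and the fat body library labelled Foxo+PntP1 uninduced replicate 1 had the highest pnt level of 9 uninduced carriers, 114.8 CPM against a median of 17.6 CPM. Enterocyte markers summed to 487 to 1185 CPM in induced guts and 466 to 817 CPM in uninduced guts, and to 102 CPM at most in fat body libraries. The fat body marker apolpp was at 30.9 to 168 CPM in guts and 2847 to 15333 CPM in fat body libraries, whereas Lsp2 was near 0 in most libraries of both. The fat body samples were dissected as the abdomen without gut and reproductive organs, and an oenocyte list led by Cyp4g1 summed to 22170 to 92078 CPM in them. Ovary and follicle cell markers summed to 77.8, 1101 and 2112 CPM (lowest, median and highest) in induced and 22.3, 807 and 2953 CPM in uninduced fat body libraries. Spermatheca markers there reached 356 CPM in induced and 361 CPM in uninduced libraries. The part of such carry-over in the fat body values was not tested. Mitochondrial genes took 24.9% of the counts of gut Foxo+PntP1 induced replicate 2 and of gut Foxo+AopACT+PntP1 uninduced replicate 3. P-values throughout measure the spread between these pools, and in bulk tissue more cells of a type and more RNA per cell cannot be told apart.

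The genes lay in 2 tight arrays and in small groups elsewhere. In coordinates of genome release 6, the 11 GstD genes filled 20.8 kb of chromosome arm 3R, positions 12364776 to 12385624, with GstD10, GstD9 and GstD1 on the minus strand and the other 8 genes on the plus strand. GstE1 to GstE10 filled 13.2 kb of 2R, positions 18396638 to 18409835, with GstE10 alone on the minus strand. GstE11, GstE12, GstE13, GstE14 and GstS1 stood apart on 2R, GstT1 and GstT2 were 107 bp apart on 2R, the 3 omega genes were neighbours on 3L, the zeta pair adjoined each other on 3R, and GstT3 and GstT4 were on X. Within the GstD array the genes from GstD2 to GstD8 each had 1 exon. Neighbouring members are close paralogs, and no source used here says how reads matching several of them were counted. GstE1 with GstE10, GstE9 with imd, GstE12 with CG3894, GstE13 with CG18659, GstT2 with CG12926 and GstO2 with se overlapped on opposite strands, and none says whether counting used strand, so the counts of these genes are uncertain.

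In uninduced flies, glutathione transferase transcripts were richer in the gut. Members took 0.229, 0.306 and 0.363% (lowest, median and highest) of all counts in 19 uninduced gut libraries and 0.131, 0.171 and 0.234% in 16 uninduced fat body libraries. Per kb of exon, the 5 highest in the gut were GstD1 with a median of 773 CPM per kb, GstE3 with 643, GstO3 with 363, GstE12 with 324 and GstT4 with 266. In the fat body the 5 highest were GstE12 with a median of 304 CPM per kb, GstD1 with 281, GstE9 with 147, GstT4 with 143 and GstO3 with 62.8. Adjacent ranks overlapped in their ranges, so GstD1 and GstE3 were not separated in the gut, nor GstE12 and GstD1 in the fat body, nor GstO3 and GstE1 (median of 61.8 CPM per kb) there.

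Most of the glutathione transferases tested were higher in gut than in fat body. When the uninduced libraries of both tissues were fitted together in edgeR with genotype as a term, 74.6% of all 8399 genes tested passed an adjusted p of 0.1 (37.6% higher in gut). By library number, 13 fly pools gave both a gut and a fat body library, and this fit did not pair them. Of 26 members tested, 16 were higher and 3 were lower in gut than in fat body, and the median log2 difference was 1.01 over the members and -0.01 over all genes. The share of members that were higher in gut, 16 of 26, stood above the share of all genes. GstD5, GstD7 and GstD10 among the 16 were under the fat body count filter, and GstZ2 among the 3 was under the gut filter. These genes entered the joint test through the tissue where they were high, so the filter set their direction. GstE3 had 233, 486 and 978 CPM (lowest, median and highest) in uninduced guts against 9.71, 17.9 and 41.9 CPM in uninduced fat bodies, a log2 difference of 4.62 ± 0.21 (SE, adjusted p = 3.77e-19, edgeR). GstE7 had 83.0, 174 and 310 CPM in guts against 1.82, 5.94 and 20.4 CPM in fat bodies (4.53 ± 0.27 on the log2 scale, adjusted p = 3.66e-16, edgeR). The ranges of both genes were wholly apart, with every gut library above every fat body library. GstE5, between them in the array, had 25.2, 62.0 and 149 CPM in guts against 0.607, 3.71 and 10.6 CPM in fat bodies, a log2 difference of 3.81 ± 0.24. GstE8 was higher by 2.76 ± 0.19 and GstE6 by 1.78 ± 0.23 on the log2 scale.

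Several delta genes were barely counted in the fat body. GstD7 had 11.9, 20.3 and 35.0 CPM in uninduced guts against 0, 0 and 2.07 CPM in uninduced fat bodies, a log2 difference of 5.78 ± 0.39 that rests on very few fat body reads. GstD5 had 2.91, 9.26 and 24.7 CPM in guts against 0, 0.304 and 1.16 CPM in fat bodies (log2 difference 4.26 ± 0.35), and GstD10 differed by 2.79 ± 0.25. GstD5, GstD7 and GstD10 entered the joint test through the gut, so the filter set the direction of these differences. GstD4, GstD8, GstD11 and GstE4 were in the gut table and not in the fat body table. GstD9 was higher in gut by 2.52 ± 0.25 and GstD1, an enzyme able to dechlorinate DDT and conjugate 4-hydroxynonenal, by 1.46 ± 0.14, with 367, 652 and 1097 CPM in guts against 183, 237 and 381 CPM in fat bodies. The GstD1 ranges overlapped by a little, from 367 to 381 CPM.

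Among the other classes, the omega genes GstO3 (2.54 ± 0.14) and GstO2 (1.59 ± 0.12) and the theta genes GstT4 (1.05 ± 0.16) and GstT2 (0.98 ± 0.12) were higher in gut. GstE11 (0.75 ± 0.20) and GstE9 (0.48 ± 0.15) were higher by smaller amounts. GstZ2 ran the other way. It had 0, 0.820 and 2.03 CPM in uninduced guts against 16.8, 32.5 and 78.4 CPM in uninduced fat bodies, a log2 difference of -5.15 ± 0.21. GstZ2 was under the gut count filter and entered the test through the fat body, so the filter set its direction and its p-value is left out. Its neighbour GstZ1 had 7.28, 14.3 and 26.1 CPM in guts and 7.28, 13.7 and 19.7 CPM in fat bodies (log2 difference 0.06 ± 0.19). Zeta enzymes of mammals isomerise maleylacetoacetate in tyrosine breakdown. GstE10 (-0.93 ± 0.20) and GstO1 (-0.40 ± 0.17) were also lower in gut, GstO1 with a call that ended when fly pool was taken as a block (adjusted p = 0.145, edgeR). GstE1, GstE12, GstE13, GstS1, GstT1, GstT3 and GstZ1 did not pass the edgeR test. DESeq2 called 2 of these lower in gut, GstE1 (-0.45 ± 0.21, adjusted p = 0.0411, DESeq2) and GstT1 (-0.25 ± 0.13, adjusted p = 0.0843, DESeq2). Of 29 members in both tables, 11 had every uninduced gut library above every fat body library and 1, GstZ2, had every gut library below. How many of all genes were wholly apart was not counted, and 74.6% of all genes tested passed the tissue test. These counts thus say nothing particular about the members. Malpighian tubule markers summed to 6.48 to 76.9 CPM in uninduced guts, below the 107 to 271 CPM in uninduced fat body libraries, and their part in the tissue differences was not tested.

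**Figure D1:**
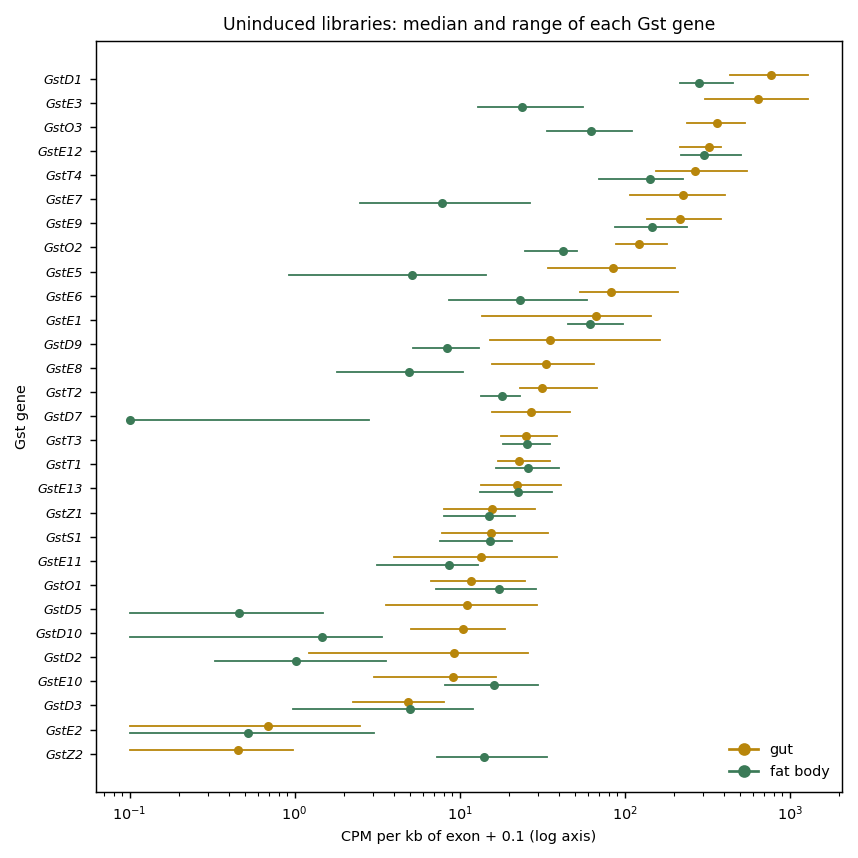
Median (point) and range (line) of CPM per kb of exon, plus 0.1, on a log axis for the 29 glutathione transferases in both tables, in 19 uninduced gut libraries (ochre) and 16 uninduced fat body libraries (green). Gut lies right of fat body for most genes, the lines of GstE3, GstE7 and GstD7 do not meet, and GstZ2 lies the other way round.

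Delta class transcripts were higher in the guts of RU486-fed flies. Averaged over the 7 genotypes, 11.1% of all 9270 gut genes passed the test (4.66% higher, 6.45% lower), and of 30 members tested 9 were higher and 0 were lower in induced guts. No member was lower by DESeq2 either, and 11 members had an unadjusted p under 0.05. Of 9 delta genes tested 6 rose (GstD1, GstD2, GstD5, GstD8, GstD9 and GstD10), with a class median log2 change of 0.88, and of 12 epsilon genes tested 3 rose (GstE5, GstE6 and GstE11), with a class median of 0.21. The median was 0.21 over the 30 members and 0.00 over all genes. No sigma, theta, omega or zeta gene passed. Members took 0.294, 0.421 and 0.673% of counts in induced guts against 0.229, 0.306 and 0.363% in uninduced guts.

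GstD8 changed by the widest margin. It had 3.24, 22.1 and 78.2 CPM (lowest, median and highest) in 17 induced gut libraries against 1.28, 4.02 and 9.18 CPM in 19 uninduced ones, a mean log2 response of 2.27 ± 0.22 (adjusted p = 4.90e-08, edgeR). GstD9 had 28.4, 85.0 and 306 CPM in induced guts against 11.1, 25.8 and 121 CPM in uninduced guts, a log2 response of 1.31 ± 0.13 (adjusted p = 9.42e-08, edgeR). GstD2 had 2.17, 18.6 and 59.0 CPM in induced guts against 0.810, 6.27 and 17.2 CPM in uninduced guts (1.6 ± 0.22, adjusted p = 1.63e-05, edgeR). The induced median lay above the highest uninduced library for GstD8 and GstD2 and below it for GstD9, and for all 3 genes the lowest induced libraries overlapped the uninduced range.

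GstD10, at the minus-strand end of the array, had 4.53, 21.1 and 63.5 CPM in induced guts against 4.01, 8.26 and 15.4 CPM in uninduced guts (1.32 ± 0.20, adjusted p = 4.13e-05, edgeR). GstD1 had 543, 1245 and 2423 CPM in induced guts against 340, 609 and 995 CPM in uninduced guts (0.78 ± 0.13, adjusted p = 0.000143, edgeR). GstD5 had 4.31, 15.2 and 36.2 CPM in induced guts against 2.68, 8.58 and 23.0 CPM in uninduced guts (0.88 ± 0.23, adjusted p = 0.0124, edgeR). GstD1 was the most abundant delta gene per length and made up most of the class total. Delta CPM summed to 650, 1434 and 2951 in induced guts against 387, 680 and 1146 in uninduced guts, and GstD1 alone made up a median of 30.9% of all glutathione transferase CPM in induced guts and 20.4% in uninduced guts.

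The 3 delta genes that did not pass lay between risen ones. GstD7 had 9.07, 21.4 and 78.5 CPM in induced guts against 11.0, 19.9 and 32.6 CPM in uninduced guts (log2 response 0.23 ± 0.16, adjusted p = 0.520, edgeR). GstD3 stood at medians of 3.49 CPM in induced and 3.31 CPM in uninduced guts, and GstD4 at 1.72 CPM in induced and 1.27 CPM in uninduced guts. GstD11, at or below 1.66 CPM in every gut library, was under the count filter, and GstD6 was not in the table.

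Epsilon genes split. GstE6 had 53.7, 120 and 297 CPM in induced guts against 36.4, 57.1 and 147 CPM in uninduced guts (log2 response 1.01 ± 0.17, adjusted p = 0.000184, edgeR). GstE11, which lies outside the array, had 6.30, 17.7 and 55.5 CPM in induced guts against 3.54, 11.5 and 36.1 CPM in uninduced guts (0.65 ± 0.18, adjusted p = 0.0194, edgeR). GstE5 had 33.1, 73.1 and 161 CPM in induced guts against 23.2, 55.9 and 139 CPM in uninduced guts (0.54 ± 0.16, adjusted p = 0.0297, edgeR). The induced and uninduced ranges of these 3 genes overlapped widely. The most abundant epsilon genes per length did not pass the test: GstE3 had 193, 497 and 1084 CPM in induced guts and 221, 461 and 886 CPM in uninduced guts (-0.01 ± 0.17), and GstE12 had 359, 415 and 620 CPM in induced guts and 282, 421 and 507 CPM in uninduced guts (0.04 ± 0.09). Epsilon CPM summed to 890, 1499 and 2718 in induced guts and 979, 1509 and 2255 in uninduced guts. GstE4 was at 0 in 4 of 17 induced and 10 of 19 uninduced gut libraries, and its fitted response had no usable error.

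**Figure D2:**
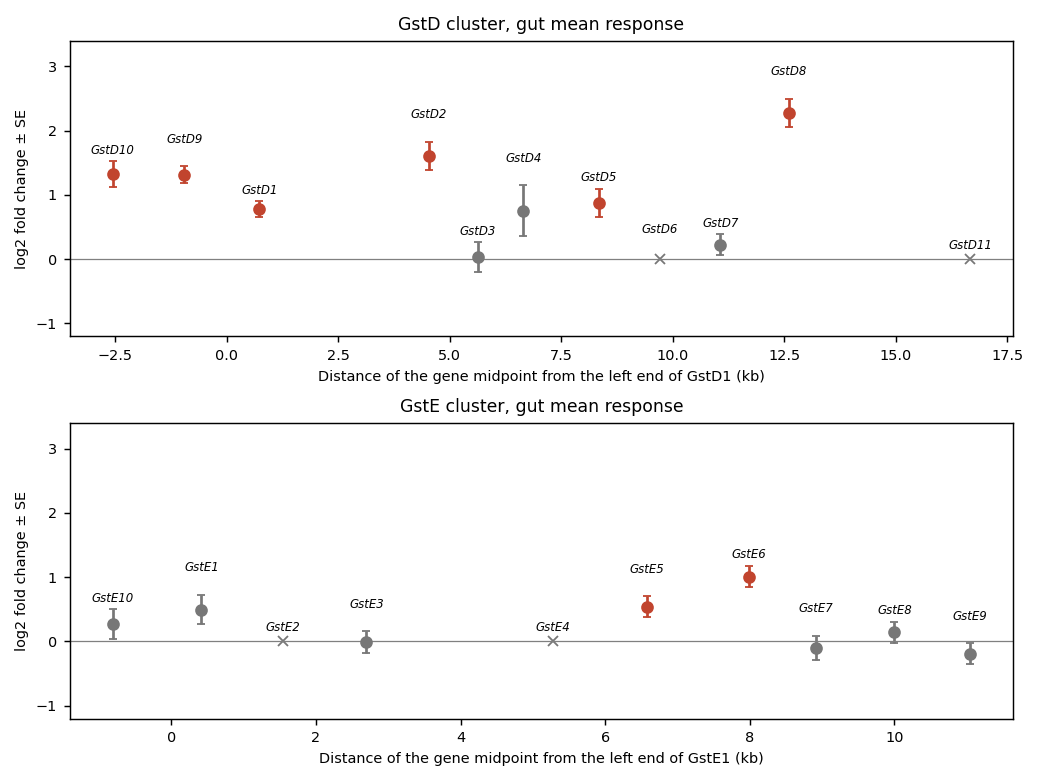
Mean log2 response to RU486 in the gut (points, with SE bars; red, adjusted p under 0.1) for the genes of the GstD array (top) and the GstE array (bottom), against the distance of each gene's midpoint from the left end of GstD1 or GstE1 in kb; crosses mark genes with no usable estimate. Risen genes run from GstD10 at the left end of the GstD array to GstD8, with GstD3, GstD4 and GstD7 among them not called. GstD11 at the right end is a cross. GstE5 and GstE6 are the risen pair of the GstE array.

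The remaining classes moved little on average in the gut. Theta CPM summed to 164, 415 and 1222 in induced guts and 259, 368 and 748 in uninduced guts. Omega CPM summed to 374, 478 and 830 in induced guts and 344, 485 and 792 in uninduced guts, where GstO1 (-0.35 ± 0.17, adjusted p = 0.278, edgeR) and GstO2 (-0.24 ± 0.12, adjusted p = 0.264, edgeR) missed the test. GstS1, the sigma enzyme known for its abundance in flight muscle, had 12.5, 32.3 and 66.7 CPM in induced guts and 17.5, 33.8 and 70.5 CPM in uninduced guts (-0.08 ± 0.13). GstZ1 had a response of -0.23 ± 0.21. GstZ2, GstE2 and GstD11 were under the count filter, with medians of 1.31, 0.309 and 0.371 CPM in induced guts.

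The direction was also counted by pair within experimental blocks. These pairs come from the same libraries that gave the calls, so the counts are not independent evidence. Among 15 gut pairs of an induced and an uninduced library of the same genotype and block, the induced library was higher in 15 for GstE6, in 14 for GstD1, GstD2, GstD8, GstD9, GstE5 and GstE11, in 13 for GstD10 and in 11 for GstD5. Within block A the mean difference in log2(CPM + 1) was 2.56 for GstD8, 1.55 for GstD9 and 0.69 for GstD1; within block C it was 1.15, 1.47 and 0.68, and within block D 2.24, 1.25 and 1.06. GstD1, GstD2, GstD8, GstD9, GstD10, GstE6 and GstE11 passed in all 43 fits of the mean gut response, each run with another setting or without 1 library. GstD5 (adjusted p = 0.160) and GstE5 (adjusted p = 0.127) lost their edgeR call without the Foxo+PntP1 genotype, a setting chosen after seeing the data. Of the marker lists for enterocytes, enteroendocrine cells, muscle, tubule, oenocytes and ovary, 0 genes passed in the mean gut response by edgeR or DESeq2, where 1 tubule gene had an unadjusted p under 0.05. The ovary list had a median log2 response of 0.67 with sums of 0.431 to 305 CPM in induced guts and 0 to 520 CPM in uninduced guts, and its part in the result was not tested. Of 3 progenitor genes listed, only E(spl)mbeta-HLH was in the gut table, at 9.42 to 19.3 CPM in induced guts and 8.94 to 21.7 CPM in uninduced guts. Progenitor cells were thus hardly covered. The progenitor gene Dl and the ovary gene nos were not matched to values, so neither was examined.

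**Figure D3:**
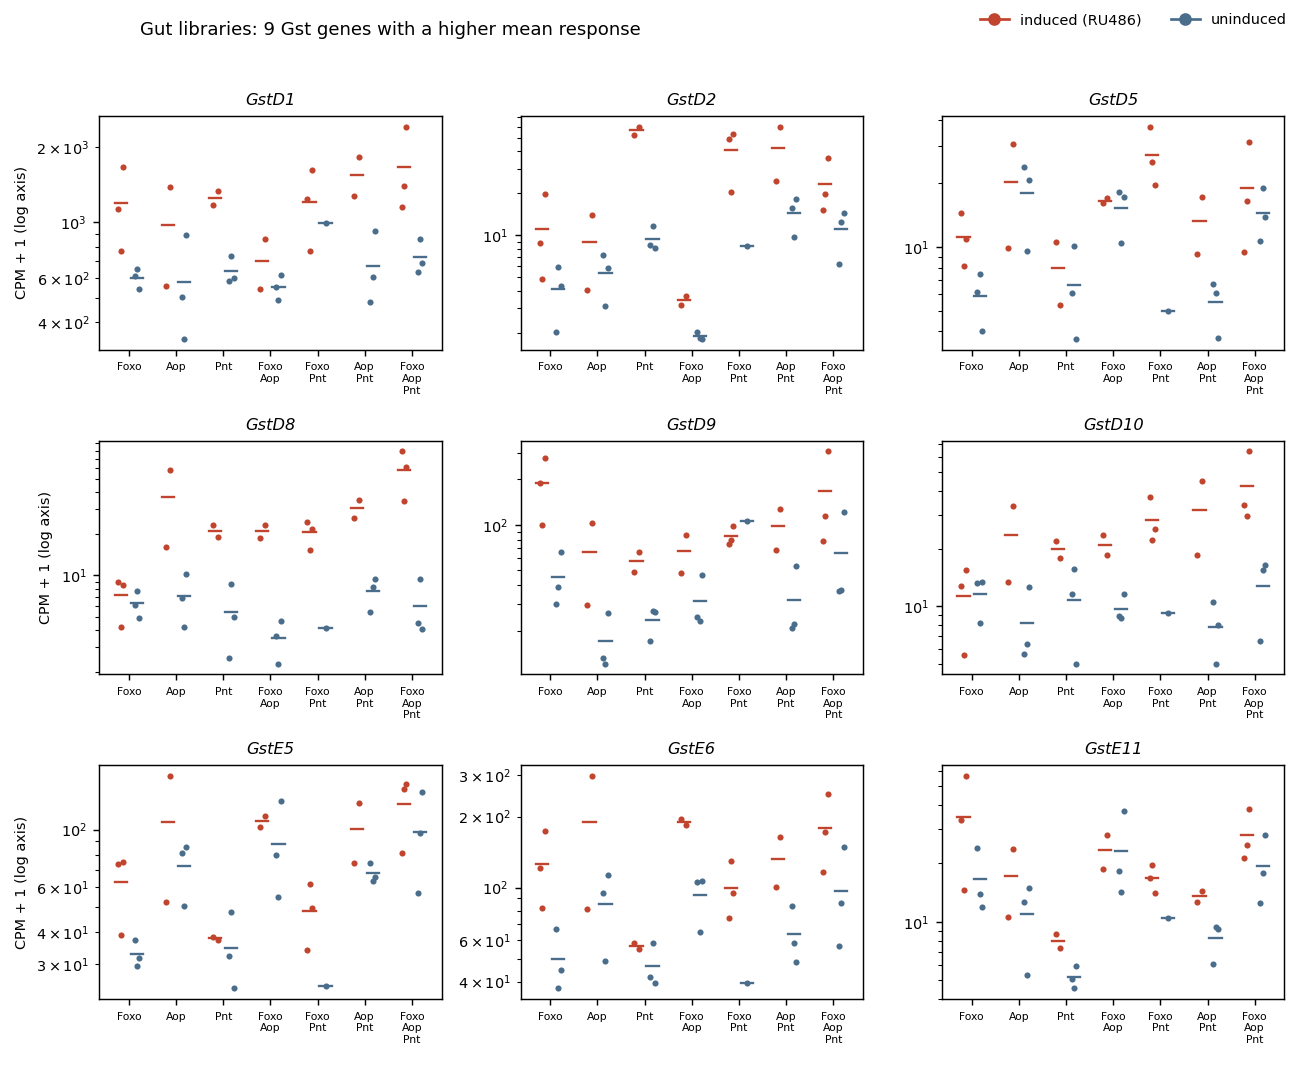
CPM plus 1 (log axes) in every gut library of the 7 genotypes for the 9 glutathione transferases with a higher mean response, with induced libraries in red left of uninduced ones in blue and bars at group means; Aop stands for AopACT and Pnt for PntP1. Induced means lie above uninduced means in every genotype, save GstD10 with Foxo (10.3 CPM induced, 10.6 CPM uninduced) and GstD9 with Foxo+PntP1. Points overlap in many genotypes: all induced points lie above in 3 of 7 for GstD5 and GstE11 and 2 of 7 for GstE5. In Foxo guts the GstD8 and GstD10 points overlap, and in Foxo+PntP1 guts the GstD9 points lie below the uninduced one.

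Genotype by genotype, GstD8 passed in 6 of 7 gut comparisons. In Foxo+AopACT+PntP1 guts it had 78.2, 33.4 and 59.9 CPM in induced libraries against 3.47, 8.43 and 3.07 CPM in uninduced ones, a log2 change of 3.48 ± 0.50 (adjusted p = 0.000141, edgeR). In Foxo+AopACT guts it had 17.8 and 22.1 CPM in induced libraries against 2.62, 1.28 and 3.65 CPM in uninduced ones (2.86 ± 0.58, adjusted p = 0.00954, edgeR). In AopACT guts it had 15.1 and 56.9 CPM in induced libraries against 5.85, 3.22 and 9.18 CPM in uninduced ones (2.53 ± 0.51, adjusted p = 0.0248, edgeR). Every induced library stood above every uninduced one in each of these genotypes. GstD8 also rose in PntP1 guts, with 22.2 and 17.9 CPM in induced libraries against 1.52, 7.58 and 4.02 CPM in uninduced ones (2.04 ± 0.55). In AopACT+PntP1 guts it had 24.9 and 34.1 CPM in induced libraries against 4.45, 7.15 and 8.46 CPM in uninduced ones (2.07 ± 0.50). In Foxo+PntP1 guts it had 23.4, 14.2 and 20.7 CPM in induced libraries against 3.13 CPM in the single uninduced one (2.80 ± 0.78). With Foxo alone the groups overlapped, at 7.86, 3.24 and 7.45 CPM in induced libraries against 5.12, 6.69 and 3.93 CPM in uninduced ones, a log2 change of 0.13 ± 0.51. Whether the GstD8 response differed among genotypes depended on the tool, with an interaction adjusted p of 0.149 in edgeR and 0.0116 in DESeq2. The edgeR calls of most genotypes rested on few libraries. The Foxo+AopACT+PntP1 call held without any 1 library. The others ended without Foxo+AopACT induced replicate 2 (adjusted p = 0.109), Foxo+PntP1 induced replicate 3 (0.113) or libraries 02 and 05 (0.111), AopACT induced replicate 2 or uninduced replicates 2 or 3 (up to 0.893), PntP1 induced replicates 1 or 2 or uninduced replicates 1 or 3 (up to 0.332), and any 1 of the 5 AopACT+PntP1 libraries (up to 0.291), a call also lost with that genotype fitted alone (0.339).

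GstD9 passed in 5 genotypes, including Foxo, where GstD8 did not. In Foxo guts it had 188, 98.8 and 278 CPM in induced libraries against 29.2, 38.1 and 64.8 CPM in uninduced ones, a log2 change of 2.08 ± 0.31 (adjusted p = 0.000477, edgeR). Its AopACT values were 28.4 and 101 CPM in induced libraries against 12.1, 11.1 and 25.1 CPM in uninduced ones (1.72 ± 0.34, adjusted p = 0.0247, edgeR). In AopACT+PntP1 guts it had 67.7 and 126 CPM in induced libraries against 19.7, 21.3 and 52.3 CPM in uninduced ones (1.53 ± 0.33, adjusted p = 0.0280, edgeR). In these 3 genotypes the groups did not overlap. In Foxo+AopACT+PntP1 guts, with 77.9, 113 and 306 CPM in induced libraries against 35.4, 36.1 and 121 CPM in uninduced ones, GstD9 rose by 1.38 ± 0.30 with overlap. In PntP1 guts it had 47.6 and 65.3 CPM in induced libraries against 16.2, 25.8 and 25.5 CPM in uninduced ones (1.14 ± 0.35, adjusted p = 0.0957, edgeR), a call that ended without any 1 of 16 libraries (up to 0.580) or without libraries 02 and 05 (0.120). Foxo+PntP1 guts had 74.1, 78.0 and 97.2 CPM in induced libraries against 105 CPM in the single uninduced one, the sole genotype whose induced libraries were all lower. No difference in the GstD9 response among genotypes passed the test (interaction adjusted p = 0.623, edgeR). Without the replicate block none of the 5 single-genotype calls of GstD9 passed (adjusted p between 0.149 and 0.418, edgeR), while its mean response did. With the genotype fitted alone the AopACT (0.281) and AopACT+PntP1 (1.0) calls ended too. The AopACT call also ended without AopACT induced replicate 2 or uninduced replicates 2 or 3 (up to 0.791), the AopACT+PntP1 call without induced replicates 1 or 2 or uninduced replicates 1 or 2 (up to 0.291), and the Foxo+AopACT+PntP1 call without uninduced replicate 2 or induced replicate 3 (up to 0.162).

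Other delta calls came in genotypes with PntP1. GstD2 rose in PntP1 guts, with 51.6 and 59.0 CPM in induced libraries against 7.59, 10.6 and 7.15 CPM in uninduced ones (log2 change 2.48 ± 0.49, adjusted p = 0.00378, edgeR), and this call held without any 1 library. In Foxo+PntP1 guts GstD2 had 48.1, 19.4 and 51.8 CPM in induced libraries against 7.41 CPM in the uninduced one (2.83 ± 0.71, adjusted p = 0.0335, or 0.172 without the replicate block, edgeR). GstD10 rose in AopACT+PntP1 guts, with 17.5 and 44.1 CPM in induced libraries against 9.54, 4.01 and 6.95 CPM in uninduced ones (2.22 ± 0.50, adjusted p = 0.0355, edgeR). All induced libraries exceeded all uninduced ones in each of these 3 comparisons. GstD10 also rose in Foxo+AopACT+PntP1 guts, with 32.7, 28.6 and 63.5 CPM in induced libraries against 5.55, 14.5 and 15.4 CPM in uninduced ones (1.79 ± 0.45, adjusted p = 0.0492, edgeR). GstD1 rose in the same genotype, with 1158, 1400 and 2423 CPM in induced libraries against 635, 859 and 688 CPM in uninduced ones (1.10 ± 0.30, adjusted p = 0.0723, edgeR). Both of these calls ended without the pair of libraries of high mitochondrial share (adjusted p = 0.135 for GstD10 and 0.280 for GstD1, edgeR), and the GstD1 call also without the block (0.156) or with the genotype fitted alone (0.279). Single libraries also ended them: for GstD10, AopACT+PntP1 induced replicates 1 or 2 or uninduced replicates 2 or 3 (up to 0.376) and Foxo+AopACT+PntP1 uninduced replicates 1 or 3 or induced replicate 3 (up to 0.257), and for GstD1, Foxo+AopACT+PntP1 uninduced replicates 1 or 3 or induced replicates 2 or 3 (up to 0.378). Calls made in some genotypes and missed in others do not show a difference between genotypes, and the edgeR interaction called no delta gene (DESeq2 called GstD8).

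Counted over the 30 members tested, the single-genotype gut comparisons called 2 higher with Foxo (0.507% of all genes passed, 0.334% higher and 0.173% lower), 2 higher with AopACT (0.291%, 0.14% higher and 0.151% lower) and 3 higher and 2 lower with PntP1 (3.04%, 1.46% higher and 1.59% lower). They called 1 higher with Foxo+AopACT (2.13%, 0.831% higher and 1.29% lower), 2 higher and 1 lower with Foxo+PntP1 (2.79%, 1.14% higher and 1.65% lower), 3 higher with AopACT+PntP1 (0.787%, 0.507% higher and 0.28% lower) and 4 higher with Foxo+AopACT+PntP1 (1.64%, 0.593% higher and 1.05% lower). Foxo+AopACT had the lowest count of members against a background over 2%, and AopACT had 2 members against a background of 27 genes. The median log2 change of the 30 members was 0.62 with Foxo, 0.40 with AopACT, -0.04 with PntP1, -0.01 with Foxo+AopACT, 0.38 with Foxo+PntP1, 0.46 with AopACT+PntP1 and 0.13 with Foxo+AopACT+PntP1, beside medians over all genes between -0.10 and 0.05. These comparisons use separate libraries of each genotype and share 1 estimate of the spread.

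**Figure D4:**
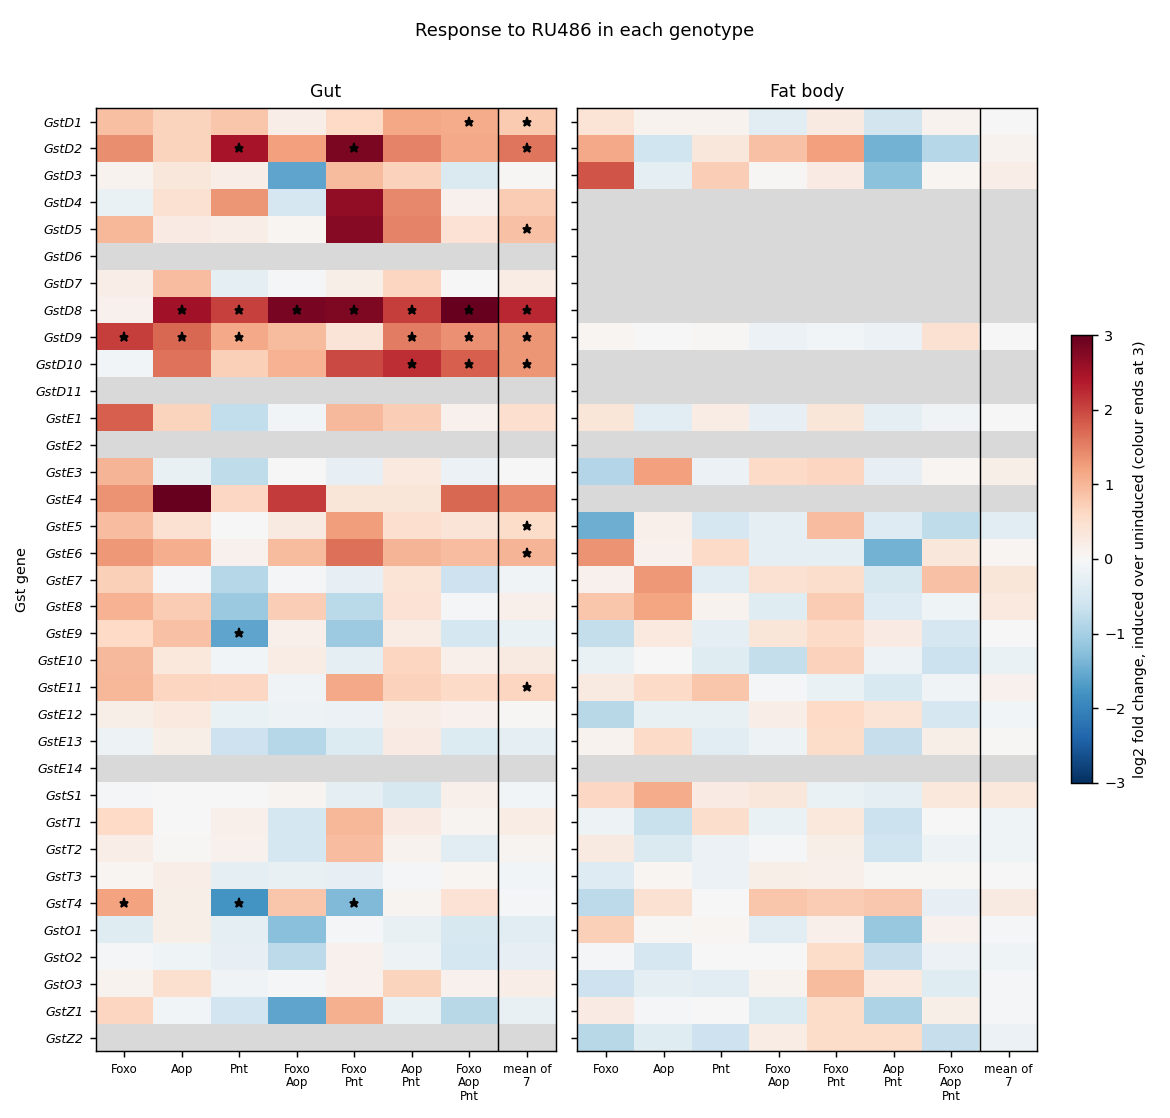
Log2 fold change of induced over uninduced libraries (red higher, blue lower, colour ending at 3) for the 35 glutathione transferases in gut (left) and fat body (right), by genotype and for the mean of the 7; stars mark an adjusted p under 0.1 in edgeR, grey marks genes not tested, Aop stands for AopACT and Pnt for PntP1, and GstE4 rests on few counts. Stars cluster in the rows GstD8 and GstD9 in the gut, GstT4 carries stars of both colours, and the fat body has none.

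GstT4, a theta gene on X at positions 13404749 to 13409323, had a mean response of -0.06 ± 0.12 in the gut, with genotypes that moved in opposite directions. With Foxo it rose, at 1111, 1046 and 1037 CPM in induced guts against 647, 403 and 370 CPM in uninduced guts, a log2 change of 1.22 ± 0.29 (adjusted p = 0.0656, edgeR). With PntP1 it fell, at 148 and 94.2 CPM in induced guts against 451, 502 and 260 CPM in uninduced guts (-1.78 ± 0.35, adjusted p = 0.00325, edgeR). With Foxo+PntP1 it also fell, at 96.6, 93.1 and 67.9 CPM in induced guts against 180 CPM in the single uninduced one (-1.32 ± 0.40, adjusted p = 0.0931, edgeR). In all 3 genotypes the induced and uninduced libraries were wholly apart. The Foxo call ended without any 1 of 5 libraries (all but Foxo induced replicate 1; adjusted p up to 0.359) and without the replicate block (0.273) or libraries 02 and 05 (0.161), the PntP1 call without PntP1 induced replicate 2 (0.109), and the Foxo+PntP1 call without any 1 of 15 libraries (up to 0.241), without the block (0.422) or without libraries 02 and 05 (0.181).

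Genotypes with AopACT lay between these extremes for GstT4. AopACT guts had 324 and 356 CPM in induced libraries against 597, 289 and 184 CPM in uninduced ones, and AopACT+PntP1 guts had 248 and 391 CPM in induced libraries against 476, 284 and 294 CPM in uninduced ones. Foxo+AopACT guts had 576 and 429 CPM in induced libraries against 359, 259 and 227 CPM in uninduced ones, without overlap and without passing the edgeR test. Foxo+AopACT+PntP1 guts had 335, 293 and 378 CPM in induced libraries against 238, 347 and 176 CPM in uninduced ones. The interaction test, in which 2.45% of all genes passed, gave an adjusted p of 0.00144 for GstT4 (edgeR), the sole member called, and no left-out library or other setting ended it. The DESeq2 interaction called 4 members, adding GstD8, GstE8 and GstE9.

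The response of GstT4 was read further through the 3 genotype pairs that differ by 1 transgene. With AopACT added the log2 response was larger by 1.07 ± 0.27 (adjusted p = 0.0629, edgeR; 1.08% of all genes passed, 0.55% higher and 0.529% lower), and GstT4 was the sole member called. The 3 pairs were unlike: the GstT4 response was 0.07 with AopACT+PntP1 against -1.78 with PntP1, and 0.43 with Foxo+AopACT+PntP1 against -1.32 with Foxo+PntP1, but 0.82 with Foxo+AopACT against 1.22 with Foxo, where it was smaller. With PntP1 added it was smaller, by a log2 difference of -1.01 ± 0.27 (adjusted p = 0.0478, edgeR; 2.38% of all genes passed, 1.25% higher and 1.13% lower), again the sole member in edgeR, where DESeq2 also called GstE9. Here the GstT4 response was -1.32 with Foxo+PntP1 against 1.22 with Foxo, 0.07 with AopACT+PntP1 against 0.18 with AopACT, and 0.43 with Foxo+AopACT+PntP1 against 0.82 with Foxo+AopACT. Differences between single pairs were not tested. With Foxo added 0 members were called (0.0216% of all genes passed, 0.0108% higher and 0.0108% lower), with 0 at an unadjusted p under 0.05 and 0 by DESeq2. Without the replicate block the adjusted p was 0.301 for AopACT added and 0.209 for PntP1 added, and the AopACT call also ended without any 1 of 8 libraries, spread over the PntP1, Foxo+AopACT, Foxo+PntP1, AopACT+PntP1 and Foxo+AopACT+PntP1 genotypes (up to 0.158), or without the libraries numbered 02 and 05. The PntP1 call held without any 1 library.

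**Figure D5:**
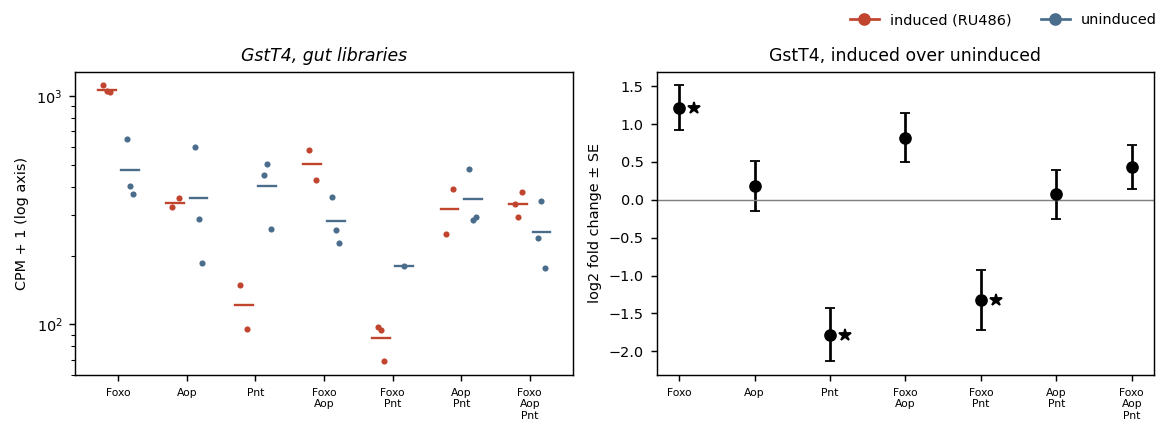
GstT4 in the gut: CPM plus 1 (log axis) in every library with group means as bars, induced in red left of uninduced in blue (left), and log2 fold change with SE bars by genotype, stars marking an adjusted p under 0.1 (right); Aop stands for AopACT and Pnt for PntP1. The 3 induced Foxo libraries stand at 1037 CPM or higher and the induced PntP1 and Foxo+PntP1 libraries lie below their uninduced libraries.

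GstE9 was the other member with a fall. PntP1 guts had 50.3 and 61.3 CPM in induced libraries against 168, 206 and 99.2 CPM in uninduced ones, a log2 change of -1.59 ± 0.45 (adjusted p = 0.0608, edgeR), and leaving out PntP1 induced replicates 1 or 2 or uninduced replicates 1 or 2 ended the call (up to 0.484). With Foxo+PntP1 its estimate was -1.09 ± 0.52 and with AopACT 0.88 ± 0.41, neither past the test, and the interaction adjusted p was 0.127 in edgeR and 0.00838 in DESeq2.

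In the fat body no glutathione transferase passed in any comparison by edgeR. The mean response called 0 of 25 members (0.277% of all 9734 genes passed), with 0 at an unadjusted p under 0.05 and 0 by DESeq2, and the median log2 response was 0.00 over the members and -0.02 over all genes. The single-genotype comparisons, in which 0% (Foxo), 0.411% (AopACT), 0.0103% (PntP1), 0.0308% (Foxo+AopACT), 0% (Foxo+PntP1), 0.123% (AopACT+PntP1) and 0.0103% (Foxo+AopACT+PntP1) of all genes passed, had 5, 2, 0, 1, 1, 7 and 0 members at an unadjusted p under 0.05. DESeq2 called 1 member in these 7 comparisons, GstE6 with Foxo, which had 23.5, 28.3 and 45.2 CPM in induced libraries against 9.32, 21.5 and 7.75 CPM in uninduced ones (adjusted p = 0.0990, DESeq2; 0.196, edgeR). The interaction (0.113% of all genes passed) and the contrasts for Foxo added (0%), AopACT added (0.0308%) and PntP1 added (0.37%) also called 0 members with either tool, with 2, 1, 5 and 1 at an unadjusted p under 0.05. Leaving out 1 library gave calls in 4 of these comparisons: 4 members for AopACT added without Foxo+AopACT uninduced replicate 1, 2 for Foxo without Foxo induced replicate 1, 1 for AopACT+PntP1 without AopACT uninduced replicate 2, and 1 for PntP1 added without AopACT uninduced replicate 1.

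The lowest p-values of the mean response and interaction in the fat body belonged to GstT4, GstE6, GstS1 and GstE13. GstT4 had 61.9, 249 and 580 CPM in 18 induced libraries and 97.6, 213 and 341 CPM in 16 uninduced libraries (interaction adjusted p = 0.375, edgeR). Foxo fat bodies had 139, 61.9 and 165 CPM of GstT4 in induced libraries against 147, 224 and 242 CPM in uninduced ones, and AopACT+PntP1 fat bodies had 234, 336 and 580 CPM in induced libraries against 235 and 204 CPM in uninduced ones. GstE6 had 13.0, 26.1 and 45.2 CPM in induced and 7.75, 20.7 and 54.0 CPM in uninduced fat bodies (interaction adjusted p = 0.378, edgeR). GstS1 had 23.1, 46.2 and 105 CPM in induced and 20.1, 42.0 and 60.6 CPM in uninduced fat bodies, a mean log2 response of 0.31 ± 0.15, and GstE13 had 18.7, 28.1 and 46.7 CPM in induced and 17.0, 28.7 and 46.9 CPM in uninduced fat bodies (interaction adjusted p = 0.393, edgeR). In all 4 genes the induced and uninduced ranges overlapped, and the highest library was an induced one for GstT4 and GstS1. GstD5, GstD7, GstD10, GstE2 and GstE14 were in the table but under the count filter. GstE14, known as noppera-bo and needed for ecdysteroid synthesis, was not in the gut table and took a median of 0.03% of the fat body glutathione transferase CPM in both states.

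The gut and fat body responses were then set against each other in 1 edgeR fit of all 70 libraries, a comparison chosen after seeing the data. Gut and fat body libraries of the same fly pool were not paired in it. The mean response was larger in gut for 3 of 29 members (1.12% of all genes passed, 0.669% with a larger gut response). For GstD9 the gut response exceeded the fat body response by 1.3 ± 0.24 on the log2 scale (adjusted p = 0.000771, edgeR), where fat bodies had 3.88, 7.85 and 20.8 CPM when induced and 4.98, 8.2 and 12.9 CPM when uninduced. For GstD1 the difference was 0.77 ± 0.19 (adjusted p = 0.0315, edgeR), with fat body levels of 167, 325 and 548 CPM when induced and 220, 291 and 479 CPM when uninduced. The GstD10 difference of 1.77 ± 0.43 (adjusted p = 0.0315, edgeR) rested on fat body medians of 1.25 CPM when induced and 1.46 CPM when uninduced, and it was lost without fat body AopACT uninduced replicate 1 (adjusted p = 0.269). Without fat body AopACT uninduced replicate 2 the count was 5. GstE6 (0.95 ± 0.28, adjusted p = 0.101) and GstD2 (1.45 ± 0.47, adjusted p = 0.186) missed the edgeR threshold. DESeq2 called both. GstD8 was not in the fat body table and could not be compared.

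Genes that work beside glutathione transferases were counted in the same way, against 4.66% of all gut genes higher and 6.45% lower in the mean gut response. There, 0 of 3 tested genes of glutathione synthesis and salvage passed by edgeR (1 lower by DESeq2, 1 at an unadjusted p under 0.05), and of 12 thiol and oxygen radical defence genes tested 0 rose and 1, the extracellular superoxide dismutase Sod3, fell (-0.51 ± 0.11, adjusted p = 0.00226, edgeR). Of the 3 Keap1-CncC factors, Keap1 fell, with 13.8, 45.4 and 75.1 CPM in induced guts against 33.9, 57.4 and 66.9 CPM in uninduced guts (-0.34 ± 0.09, adjusted p = 0.0208, edgeR), whereas cnc had 186, 214 and 310 CPM in induced guts and 209, 252 and 347 CPM in uninduced guts without passing. Of 3 export pumps for conjugates, MRP rose (0.42 ± 0.08, adjusted p = 0.000941, edgeR) and Mrp5 fell (-0.69 ± 0.12, adjusted p = 0.000191, edgeR). Of 29 UDP-glycosyltransferases tested, which join sugars to toxins, 3 rose and 5 fell, led by Ugt301D1 with 15.7, 45.3 and 193 CPM in induced guts against 8.58, 17.1 and 29.3 CPM in uninduced guts (1.37 ± 0.16, adjusted p = 1.05e-06, edgeR). Of 5 cytochrome P450 genes known from phenobarbital or CncC work, 0 rose and 3 fell, among them Cyp6a8 (-1.16 ± 0.17, adjusted p = 4.47e-05, edgeR) and the near-identical copies Cyp12d1-p and Cyp12d1-d, whose counts are uncertain. Of the genes called in the mean response, the edgeR interaction also called Sod3 (adjusted p = 0.0286), Ugt37B1 (0.00186) and Cyp12d1-p (0.0921). With PntP1 added the responses of Keap1 (-0.91 ± 0.20, adjusted p = 0.0137, edgeR), Ugt37B1 (-2.07 ± 0.37, 0.00215) and Cyp12d1-p (-1.94 ± 0.48, 0.0307) were lower. For these genes the mean of the 7 does not describe every genotype. Of 4 other enzymes with a glutathione transferase fold or microsomal activity (se, Mgstl, gfzf and eEF1gamma), 0 passed by edgeR or DESeq2 and 0 had an unadjusted p under 0.05. In the fat body 0 genes of these 7 lists passed in the mean response by edgeR or DESeq2, and 1 UDP-glycosyltransferase had an unadjusted p under 0.05.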

How the data were processed

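Guts and abdominal fat bodies were sequenced as poly(A) RNA libraries with molecular identifiers. Per the study's methods and processing notes, the authors removed duplicate reads by those identifiers with Je, aligned reads to genome release 6 with HISAT2, and counted reads per gene with featureCounts; the deposited counts are whole numbers, not normalized, and the methods state that genes with no counts were excluded. The lowest sums per gene were 36 over the 36 gut libraries and 34 over the 34 fat body libraries, so a gene with a lower sum in a tissue is not in that tissue's table. Counting strand and treatment of multiply mapped reads are not given in the sources used here. Columns were matched to samples by library number.

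FlyBase identifiers were mapped to symbols through the reference gene table (10287 of 10366 gut and 10982 of 11069 fat body genes). Each tissue was fitted in edgeR 4.0.16 (R 4.3.3, limma 3.58.1) on the counts, with the 14 groups and the block letter, TMM scaling, filterByExpr with a count minimum of 10, and the quasi-likelihood test; calls were made at a Benjamini-Hochberg adjusted p under 0.1, the study's threshold of 10%. This left 9270 gut and 9734 fat body genes, with 20 and 18 residual degrees of freedom and biological coefficients of variation of 0.313 and 0.389. The interaction tested whether the response differed among the 7 genotypes, and the added contrasts averaged 3 genotype pairs differing by 1 transgene. Tissues were compared in a joint edgeR fit. SE is the log2 fold change over the root of F. CPM use TMM scaling, per kb of merged exon length from an Ensembl annotation of release 6. Scripts were tested on simulated counts. No library pair in a group differed by as little as sampling noise (lowest chi-square per degree of freedom 12.4 in 31 gut pairs and 10.8 in 26 fat body pairs).

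Members and gene lists were chosen with earlier results of these data known. Members are given in full where called in a tissue, up to the 8 of lowest p, with the 4 of lowest mean or interaction p where fewer than 4 were called, and the 5 highest per length; listed genes are named where called, at most 3 a list. Lists were glutathione synthesis and salvage, other glutathione transferase fold enzymes, Keap1-CncC factors, thiol and oxygen radical defence, conjugate export, UDP-glycosyltransferases, P450 genes, and cell type markers. Alternatives were RLE scaling, DESeq2 1.42.0, no filter, no block, each genotype alone, without libraries 02 and 05, without 2 gut libraries with a high mitochondrial share, without the fat body library with high pnt, and each library left out. No reference sequence of these genes was used.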

Additional observations from a re-analysis of the deposited data

Results flagged for a closer look

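The GstT4 response to RU486 in the gut differed among genotypes (interaction adjusted p = 0.00144, edgeR), with every induced library above every uninduced one in Foxo and Foxo+AopACT guts and below in PntP1 and Foxo+PntP1 guts. Averaged over 3 genotype pairs, the GstT4 response was larger with AopACT added (log2 difference 1.07 ± 0.27, adjusted p = 0.0629, edgeR), although smaller with Foxo+AopACT (0.82) than with Foxo (1.22). The average was smaller with PntP1 added (-1.01 ± 0.27, adjusted p = 0.0478, edgeR), and both added contrasts ended without the replicate block.

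The mean responses of GstD9 (adjusted p = 0.000771, edgeR), GstD1 (adjusted p = 0.0315, edgeR) and GstD10 (adjusted p = 0.0315, edgeR) were larger in gut than in fat body, in a comparison chosen after seeing the data. GstD10 was under the fat body count filter and entered this fit through the gut. Its call was lost without fat body AopACT uninduced replicate 1 (adjusted p = 0.269, edgeR). The foxo level of carrying fat body libraries was not higher in induced than in uninduced ones (medians of 61.6 and 95.9 CPM), and its part in these differences was not tested.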

How the results depend on the processing

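No called member changed direction, and the cause of the changes in calls was not tested. Of 2323 alternative values for single called members, 2214 kept their call and 109 kept direction but not the call. Most of these values left out 1 library, often one outside the groups compared. The kept share therefore overstates how firm the single-genotype calls were. DESeq2 gave 4 members with Foxo, 3 with Foxo+AopACT, 6 with Foxo+PntP1, 4 in the interaction and 2 for PntP1 added in the gut, 1 with Foxo in the fat body, and 5 in the mean response of gut against fat body. Genotypes fitted alone gave 8 (Foxo), 1 (AopACT), 8 (PntP1), 9 (Foxo+AopACT) and 1 (AopACT+PntP1) in the gut. Gut Foxo+PntP1 and fat body AopACT and PntP1 alone had 0 residual degrees of freedom and were not run. Without libraries 02 and 05 the gut counts were 1 with Foxo+PntP1 and 0 for AopACT added, and without the high-mitochondrial pair they were 2 with Foxo+AopACT+PntP1 and 2 in the interaction.

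The block letter is in the study's model. Deviations of libraries of the same genotype and block correlated at a median of 0.07 in the gut (14 pairs, -0.446 to 0.459) and -0.26 in the fat body (13 pairs, -0.468 to 0.332). For libraries of the same genotype in different blocks the medians were -0.05 in the gut (28 pairs, -0.452 to 0.446) and 0.02 in the fat body (28 pairs, -0.437 to 0.468). With no replicate block the gut counts were 0 with Foxo, 1 with AopACT, 2 with Foxo+AopACT+PntP1, 2 in the interaction, 0 for AopACT added and 0 for PntP1 added.

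Leaving out each library gave gut counts of 1 to 3 with Foxo, 0 to 2 with AopACT, 1 to 5 with PntP1, 0 to 2 with Foxo+AopACT, 1 to 4 with Foxo+PntP1, 0 to 4 with AopACT+PntP1, 1 to 4 with Foxo+AopACT+PntP1, 9 to 10 for the mean response, 1 to 3 for the interaction, 0 to 1 for AopACT added and 1 to 2 for PntP1 added. Fat body counts ran 0 to 2 with Foxo, 0 to 1 with AopACT+PntP1, 0 to 4 for AopACT added and 0 to 1 for PntP1 added, uninduced gut against fat body 19 to 23, and mean response of gut against fat body 2 to 5. The lone gut Foxo+PntP1 uninduced library could not be left out of contrasts using it. For the mean response of gut against fat body, the fits without 1 library kept the dispersion trend of the full fit. Groups held 1 to 3 libraries of 1138812 to 8257766 counts, and 3 gut members (GstD11, GstE2 and GstZ2) and 5 fat body members (GstD5, GstD7, GstD10, GstE2 and GstE14) were too low to test.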
